A study of Mus musculus with 6 samples.

Results

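The transcripts of 7 plasma carrier proteins listed as products of visceral endoderm were followed in the mouse yolk sac at embryonic day 9.5. The 7 were Afp, Ttr, Alb, Trf, Rbp4, Gc and Hpx. They were chosen by symbol from a table of read counts that held 25239 genes, and all 7 symbols matched a row. The series sequenced messenger RNA from 3 yolk sac libraries of wild-type (WT) CD1 embryos that received no treatment. The other 3 libraries, labelled DKO, came from embryos of mixed background that were Cdx1-/- and Cdx2 fl/fl with Actin::CreERT, a Cre recombinase that tamoxifen activates and an actin promoter drives, and that were exposed to tamoxifen at embryonic day 5.5. Strain, genotype and tamoxifen all changed from one group to the other and cannot be told apart. Nothing in the labels tells single yolk sacs from pools or names the litters, and a p-value here covers the spread among these 6 samples alone, which may be technical. Libraries are called WT1 to WT3 and DKO1 to DKO3 by their labels, so that library 1 labelled DKO is DKO1.

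Visceral endoderm is the absorptive and secretory epithelium on the outside of the yolk sac. Before the liver takes over, it makes much of the plasma protein that carries hydrophobic or reactive cargo to the embryo. Afp, alpha-fetoprotein, is the abundant albumin-like protein of fetal plasma, and Alb is albumin itself, a product mainly of hepatocytes. Gc, the vitamin D binding protein, belongs to the same family. Trf is transferrin, which carries iron, and Hpx is hemopexin, which binds free heme. Rbp4 carries retinol and circulates bound to Ttr, transthyretin, which also carries thyroid hormone.

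The albumin family genes Gc, Alb, Afp and Afm lie on mouse chromosome 5 in GRCm38, the assembly that mm10 names. Alb (90460870 to 90476602) is followed on the same strand by Afp (90490714 to 90508907) after a gap of 14111 bases, and by Afm, the gene of the vitamin E carrier afamin (90518949 to 90553544), after another 10041 bases. Gc (89417511 to 89457898) lies on the other strand, 1002971 bases before Alb. The 150 bases before the RefSeq start of each gene are shown because these neighbours differ by orders of magnitude in level, as given further on. Capitals mark TATAAA, the letters of the TATA box at which the basal transcription machinery can assemble, searched on both strands with no mismatch.
Alb, chr5:90460720-90460869, plus strand: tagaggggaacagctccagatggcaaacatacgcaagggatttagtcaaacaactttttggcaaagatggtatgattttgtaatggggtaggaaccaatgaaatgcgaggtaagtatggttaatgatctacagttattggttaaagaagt
Afp, chr5:90490564-90490713, plus strand: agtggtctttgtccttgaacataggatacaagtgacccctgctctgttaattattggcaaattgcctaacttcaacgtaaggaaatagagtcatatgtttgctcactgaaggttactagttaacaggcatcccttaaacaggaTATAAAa
Afm, chr5:90518799-90518948, plus strand: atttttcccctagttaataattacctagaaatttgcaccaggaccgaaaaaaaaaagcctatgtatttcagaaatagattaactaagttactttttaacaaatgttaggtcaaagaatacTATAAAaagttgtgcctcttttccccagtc
Gc, chr5:89457899-89458048, minus strand: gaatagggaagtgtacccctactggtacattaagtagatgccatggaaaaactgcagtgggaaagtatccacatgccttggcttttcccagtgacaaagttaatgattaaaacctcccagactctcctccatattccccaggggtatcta
TATAAA was present in 4063 of 32851 windows of 250 bases before RefSeq starts (12.4%). The window of Afp held it 7 to 2 bases before the RefSeq start and that of Afm 30 to 25 bases before. The windows of Alb and Gc did not hold it. Of the 7 carriers 5 had a window in the RefSeq table of GRCm38.p6. The letters TTTATG, a core of the CDX motif, were searched on both strands with no mismatch. They were found in 10.8% of all windows and in none of the 5 carriers. At that share, no match in so few windows is uninformative. A match is a description of letters and not of binding.

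Library totals ran from 20040601 to 56732836 counts, and within the libraries labelled DKO they were 24242663, 39014098 and 56732836 in DKO1, DKO2 and DKO3. The targeted gene Cdx2 stood at 16.7 to 20.5 CPM (counts scaled to a common library total) across WT and at 23.4 to 25.1 CPM in DKO1 to DKO3 (edgeR, adjusted p 0.449). Cdx1 held 0 to 8 and 10 to 14 counts. Neither gene was lower in DKO1 to DKO3, and counts over whole genes do not show which exons were read, so every direction below rests on the labels. All 24 visceral endoderm markers listed for this tissue, none of them one of the 7 carriers, had counts in every library. Their summed level was 25103 to 29347 CPM across WT and 21135, 27476 and 27960 CPM in DKO1, DKO2 and DKO3. Apob, at 7064 to 9463 CPM across WT, and Cubn, at 4743 to 6742 CPM, were the largest parts of that sum in WT.

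In WT the carriers fell into 4 abundant and 3 scarce transcripts. Per kilobase of the longest coding transcript in GENCODE M21, the level of Afp was 3974 ± 757 CPM per kb (SD, n = 3), that of Rbp4 2102 ± 67.9, that of Ttr 1356 ± 120 and that of Trf 505 ± 46.2. Among 20437 genes with a transcript length, Afp ranked 4 or 5 in each WT library, Rbp4 10, Ttr 17 to 20 and Trf 90 to 114. The scarce transcripts were Gc at 3.42 ± 1.0 CPM per kb, Hpx at 0.218 ± 0.085 and Alb at 0.138 ± 0.0157. The WT libraries of neighbours in this order did not overlap, except those of Hpx (0.13 to 0.3 CPM per kb) and Alb (0.12 to 0.147 CPM per kb). Afp and Alb, adjacent genes of similar transcript length (2063 and 2034 bases), differed in counts by a factor of 29176 ± 3557 across WT. The other carriers lie apart, Hpx on chromosome 7 (105591611 to 105600116), Trf on chromosome 9 (103208876 to 103230286), Ttr on chromosome 18 (20664209 to 20674326) and Rbp4 on chromosome 19 (38116620 to 38125321).

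Afp was the most variable of the abundant carriers among the libraries labelled DKO. It was measured at 9886, 6803 and 7905 CPM across WT1 to WT3, then 2261 CPM for DKO1, 11500 CPM for DKO2 and 30418 CPM for DKO3. DKO1 lay below all WT libraries and DKO2 and DKO3 lay above them, so the groups overlapped. Afp took rank 27 in DKO1 and rank 1 in DKO2 and DKO3 by level per kb. In DKO1 it stood below Rbp4 in level per kb (1096 against 1352 CPM per kb), whereas it exceeded every other carrier in the other 5 libraries. With whole-tissue RNA, fewer cells of a type and less RNA per cell cannot be told apart.

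Alb was near the limit of detection throughout. It held 8, 5 and 6 counts across WT and 3, 15 and 96 counts in DKO1, DKO2 and DKO3, that is, 0.298, 0.244 and 0.299 CPM against 0.124, 0.384 and 1.69 CPM. DKO3 stood apart, with an exact Poisson 95% interval of 1.37 to 2.07 CPM, whereas the intervals of DKO1 (0.0255 to 0.362 CPM) and DKO2 (0.215 to 0.634 CPM) overlapped those of WT. These intervals cover counting error only. The Afp to Alb count ratio was 18272 in DKO1, where Alb rested on 3 counts, 29911 in DKO2, within the WT range of 26403 to 33186, and 17976 in DKO3.

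Gc, the vitamin D binding protein, stood at 4.95, 5.31 and 8.23 CPM across WT and 3.71, 7.41 and 11.2 CPM in DKO1, DKO2 and DKO3. DKO1 was the lowest of the 6 and DKO3 the highest, and DKO2 lay within the WT range.

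Trf, the iron carrier, stood at 1436, 1218 and 1245 CPM across WT and 787, 2044 and 3915 CPM in DKO1, DKO2 and DKO3. Hpx, the heme carrier, stood at 0.335, 0.195 and 0.449 CPM across WT and 0.165, 0.948 and 2.89 CPM. In both genes DKO1 was the lowest of the 6 and DKO2 and DKO3 lay above all WT libraries. Hpx rested on 4 counts in DKO1 and on 4 to 9 in WT, so the place of DKO1 was within counting error, whereas DKO3 held 164 counts.

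Rbp4, the retinol carrier, stood at 2531, 2404 and 2387 CPM across WT and 1570, 2891 and 3114 CPM in DKO1, DKO2 and DKO3. Its partner Ttr stood at 1630, 1457 and 1738 CPM across WT and 1163, 1848 and 1924 CPM. Both spanned a narrower range from the lowest to the highest library labelled DKO, 1.98-fold and 1.65-fold, than Trf (4.98-fold) and Afp (13.5-fold). Across WT the range was 1.06-fold for Rbp4 and 1.19-fold for Ttr, so both were more spread among the libraries labelled DKO. The Ttr to Rbp4 count ratio, which does not depend on library scaling, was 0.659 ± 0.0626 across WT and 0.666 ± 0.0655 over DKO1 to DKO3 (SD, n = 3 each). The Afp to Ttr ratio was 6.06, 4.67 and 4.55 across WT and 1.94, 6.22 and 15.8 in DKO1, DKO2 and DKO3.

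**Figure D1:**
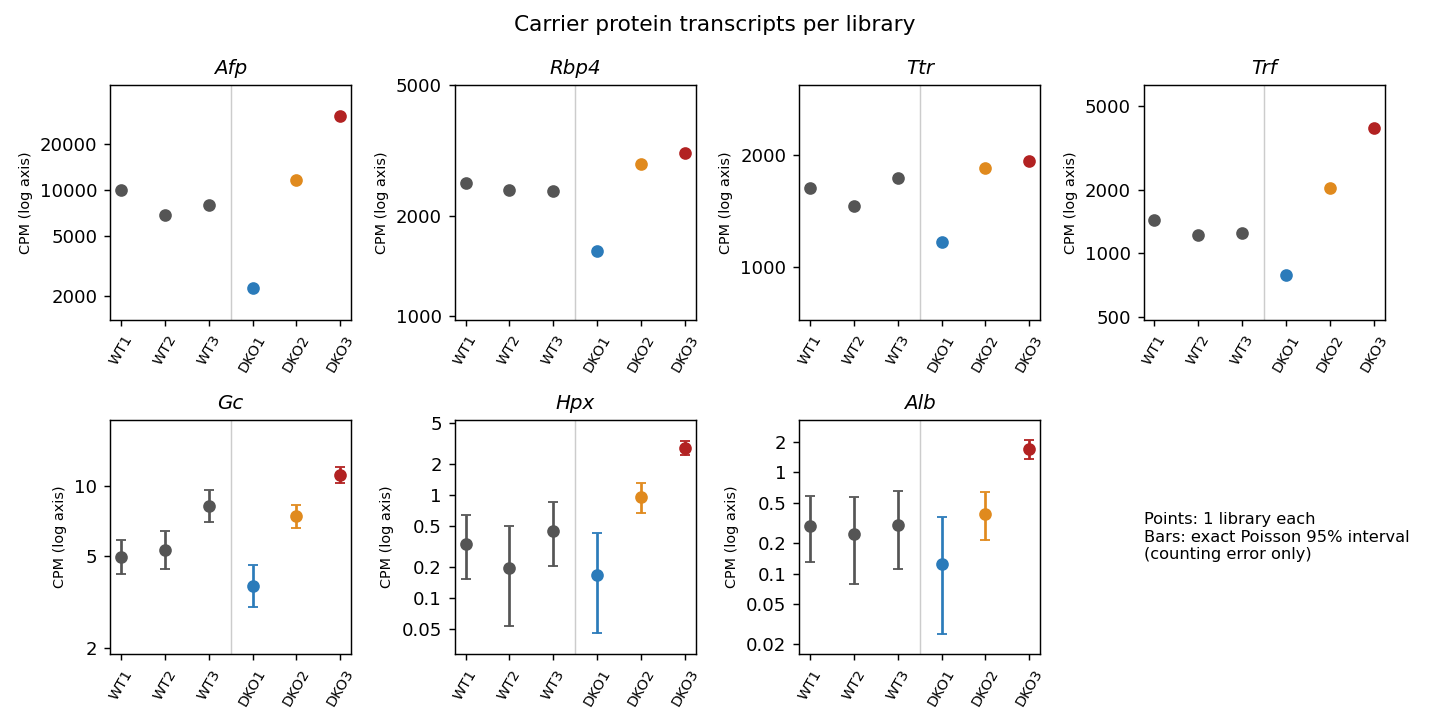
Level of each carrier transcript in CPM on a log axis, 1 point per library, with exact Poisson 95% intervals that cover counting error only. In all 7 panels DKO1 is the lowest of the 6 libraries and DKO3 the highest, as for Afp at 2261 and 30418 CPM.

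In all 7 carriers DKO1 was the lowest of the 6 libraries and DKO3 the highest. For Gc, Hpx and Alb the lowest place of DKO1 was within counting error. The arrangement of DKO1 lowest and DKO3 highest was found in 2070 of the 14002 genes tested (14.8%). The opposite one, DKO1 highest and DKO3 lowest, was found in 2663 (19.0%). DKO1, DKO2 and DKO3 stood in the same order in library total. The departures of the carriers differed in size. On the log2 scale, with a prior count of 2, DKO3 departed from the WT mean by 0.26 for Ttr, 0.35 for Rbp4, 0.89 for Gc, 1.6 for Trf, 1.91 for Afp, 2.35 for Alb and 2.98 for Hpx. DKO1 departed by -0.46 for Ttr, -0.64 for Rbp4, -0.68 for Gc, -0.72 for Trf and -1.84 for Afp. The SD of log2 CPM within the libraries labelled DKO was 1.89 for Afp, against 0.27 in WT, and 1.15% of the genes tested had a larger one. For Ttr it was 0.40, against 0.13 in WT, and 33.5% of genes had a larger one. For Rbp4 it was 0.54, against 0.05 in WT, and 22.3% of genes had a larger one. The median over all genes tested was 0.28 in the libraries labelled DKO and 0.12 across WT.

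**Figure D2:**
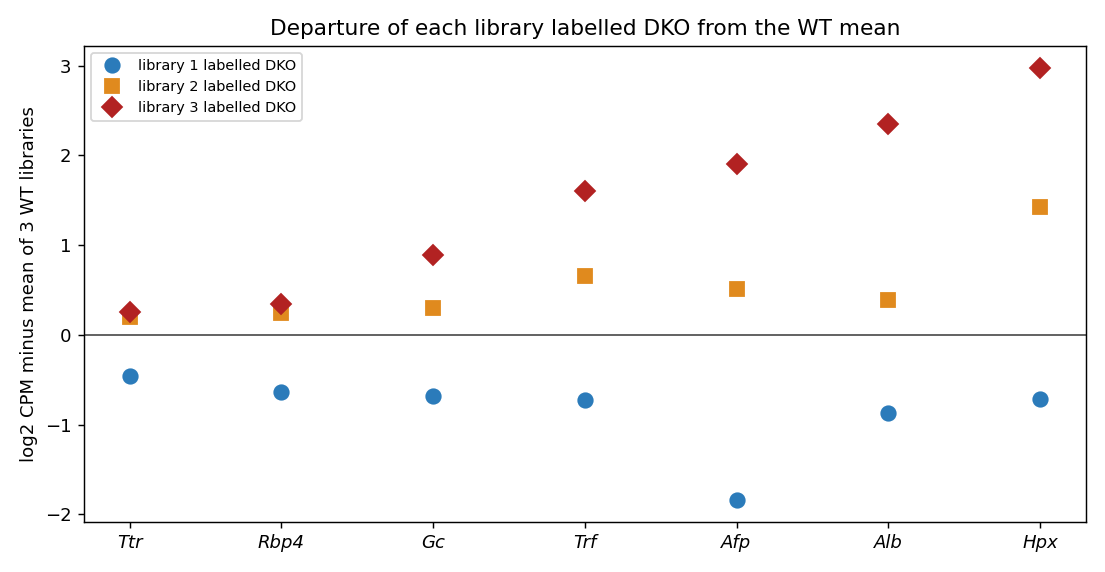
Departure of each library labelled DKO from the mean of the 3 WT libraries in log2 CPM, for each carrier. DKO1 lies below 0 for all 7 genes and DKO2 and DKO3 above it, with DKO3 ranging from 0.26 for Ttr to 2.98 for Hpx.

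No carrier passed the threshold of an adjusted p of 0.05 between the groups by edgeR's quasi-likelihood test over all genes, where 0.0357% of the genes tested were called. DESeq2 called no carrier either, in a fit that called 2.06% of genes, and no carrier had an unadjusted p under 0.05 by edgeR, where 9.09% of genes had one. Limma-voom with library quality weights called Hpx (log2 fold change 1.66, adjusted p 0.0497) in a fit that called 19% of genes. Alb did not pass the filter on low counts and was not among the 6 carriers tested. The log2 fold change, libraries labelled DKO minus WT, was 0.88 for Afp (SE 0.80, 95% interval -1.05 to 2.81, adjusted p 0.73 by edgeR). It was 0.82 for Trf (SE 0.53, interval -0.45 to 2.09, adjusted p 0.66) and 2.09 for Hpx (SE 0.96, interval -0.21 to 4.39, adjusted p 0.58). The intervals were narrower for Ttr, at 0.05 (-0.47 to 0.57, adjusted p 0.94), and for Rbp4, at 0.07 (-0.57 to 0.70, adjusted p 0.934), with Gc at 0.30 (-0.73 to 1.34, adjusted p 0.819). In a fit without the filter Alb had a log2 fold change of 1.45 and an adjusted p of 0.693 by edgeR. The median over the 6 tested carriers was 0.56, beside 0.01 over all genes tested.

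The fold changes turned on single libraries. Without DKO3, Afp stood at -0.25, Trf at 0.12, Hpx at 0.83, Gc at -0.14, Ttr at -0.10 and Rbp4 at -0.13. Without DKO1 they stood at 1.38, 1.22, 2.58, 0.62, 0.25 and 0.32, with adjusted p from 0.0526 for Trf to 0.191 for Gc by edgeR, a fit in which 4.42% of genes were called. Without DKO2 Ttr stood at -0.05 and Rbp4 at -0.04. Leaving out WT1 gave 0.16 for Gc, leaving out WT2 gave 0.20 for Gc and -0.02 for Ttr, and leaving out WT3 gave 0.55 for Gc, 0.10 for Ttr and 0.04 for Rbp4.

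**Figure D3:**
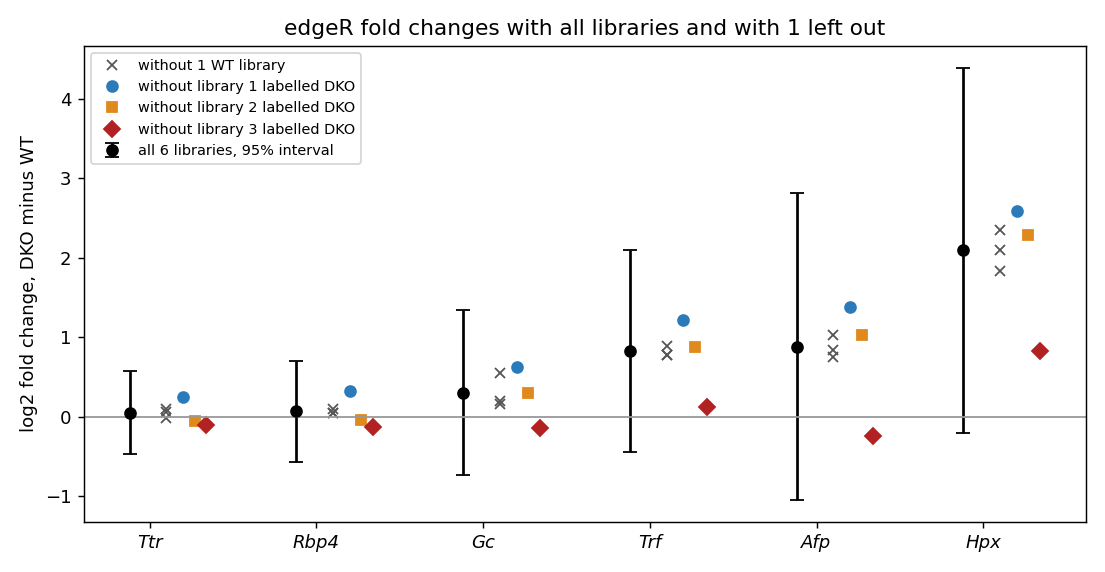
Log2 fold change of the 6 tested carriers with all libraries, with its 95% interval (black), and with 1 library left out (coloured marks and crosses). Every interval holds 0, and the values without DKO3 are the lowest of each gene, as for Afp at -0.25.

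Together the 7 carriers took 1.36% ± 0.182 of all counts in WT (SD, n = 3) and 0.578%, 1.83% and 3.94% in DKO1, DKO2 and DKO3. Afp made up 60.2% ± 3.35 of these counts across WT and 39.1%, 62.9% and 77.2% in DKO1, DKO2 and DKO3. The other 6 carriers took 0.536% ± 0.026 of counts across WT and 0.352%, 0.679% and 0.897%. Of the 24 visceral endoderm markers 7 (29.2%) had DKO1 lowest and DKO3 highest, beside 14.8% of all genes tested. The opposite arrangement was found in 1 of them (4.17%), beside 19.0% of all genes. The geometric mean of the visceral endoderm markers departed from WT by -0.29, 0.07 and 0.23 on the log2 scale in DKO1, DKO2 and DKO3. Set against that marker level, DKO3 departed by 0.03 for Ttr and 0.12 for Rbp4, but by 1.68 for Afp, 1.36 for Trf and 2.74 for Hpx. DKO1 then departed by -0.18 for Ttr, -0.35 for Rbp4, -0.43 for Trf and -1.55 for Afp.

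Other plasma carriers were mostly scarce, and 5 of 13 listed were tested. By edgeR all 5 had a fold change above 0 and none an adjusted p under 0.05, with Tcn2 so near 0 that DESeq2 and limma-voom put it below. Selenop, the selenium carrier, stood at 1139, 948 and 1002 CPM across WT and 720, 1358 and 1503 CPM in DKO1, DKO2 and DKO3, the same arrangement as the 7 carriers. Ambp, the precursor of the lipocalin alpha-1-microglobulin, stood at 26.8 to 29.9 CPM across WT and 17.2, 33.2 and 50.2 CPM. Tcn2, the cobalamin carrier, stood at 216 to 232 CPM and at 184, 247 and 235 CPM. Cp, ceruloplasmin, the copper carrier, did not pass the filter and held 8, 0 and 6 counts in WT1 to WT3, 6 in DKO1, 9 in DKO2 and 731 in DKO3.

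Afm, the neighbour of Afp, was the 1 of these 5 tested carriers whose groups did not overlap, where 15.6% of all genes tested did not. Its WT libraries were too low for the filter on low counts, which Afm passed only through the libraries labelled DKO. Its positive sign and lack of overlap among the tested carriers follow largely from that filter and are no support for a difference. It held 4, 1 and 4 counts across WT and 14, 46 and 209 counts in DKO1, DKO2 and DKO3, that is, 0.0487 to 0.2 CPM against 0.577, 1.18 and 3.68 CPM. All 3 libraries labelled DKO lay above WT, DKO1 included, unlike in Afp and Alb. On the log2 scale the groups differed by 3.78 (SE 0.89), at an adjusted p of 0.319 by edgeR and 0.00937 by DESeq2, which called 2.06% of genes. With 1 library left out, the log2 fold change of Afm ran from 2.70 without DKO3 (edgeR, adjusted p 0.216) to 4.19 without DKO1 (adjusted p 0.0406).

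Receptors and adaptors that take up these carriers lay on both sides of WT. Of 12 tested, 6 had a positive and 6 a negative fold change (median 0.02), and none passed the threshold by edgeR. The groups did not overlap in 3 with the libraries labelled DKO lower and in 2 with them higher. Over all 14002 genes tested these numbers were 1063 and 1115, together 15.6%. Cubn, cubilin, an endocytic receptor for transferrin, albumin and vitamin D binding protein, stood at 4743 to 6742 CPM across WT and 4507, 5279 and 4196 CPM in DKO1, DKO2 and DKO3. Lrp2, megalin, which takes up retinol and vitamin D carriers, stood at 1027 to 1356 CPM and 957, 949 and 988 CPM, with all 3 libraries labelled DKO below WT (log2 fold change -0.27, SE 0.13, adjusted p 0.586 by edgeR). Dab2, their endocytic adaptor, stood at 1857 to 2021 CPM across WT and 1692, 1428 and 927 CPM, again with all 3 below WT (log2 fold change -0.52, SE 0.21, adjusted p 0.539). Tfrc, the transferrin receptor that erythroid cells also express, stood at 164 to 200 CPM across WT and 167, 120 and 27 CPM. The retinol-binding protein receptor gene Stra6l stood at 1.22 to 2.2 CPM across WT and 3.05, 3.61 and 5.55 CPM (log2 fold change 1.36, SE 0.36, adjusted p 0.365 by edgeR and 0.0488 by DESeq2).

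Genes that handle the cargo were tested by list. Of 11 retinoid genes 6 were positive (median 0.01). The carotenoid-cleaving enzyme gene Bco1 stood at 54.1 to 60.1 CPM across WT and 47.4, 51.3 and 31.7 CPM in DKO1, DKO2 and DKO3, and Rdh10, a retinol dehydrogenase gene, at 34.5 to 41.8 CPM and 44.4, 46.0 and 25.7 CPM. Of 6 thyroid hormone genes 4 were negative (median -0.11). Dio3, which inactivates thyroid hormone, stood at 14.1 to 17.6 CPM across WT and 10.3, 11.4 and 8.69 CPM, a difference of -0.65 on the log2 scale (SE 0.16; edgeR gave an adjusted p of 0.333 and DESeq2 0.0276). The transporter gene Slc16a10 stood at 104 to 114 CPM and 92.3, 110 and 90.0 CPM, the hormone-responsive factor gene Klf9 at 50.3 to 58.9 CPM and 37.8, 57 and 58.3 CPM, and the receptor gene Thra at 31.0 to 37.1 CPM and 31.2, 44.8 and 51.3 CPM.

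Of 13 heme and iron genes tested 8 were positive (median 0.08). The ferritin light chain gene Ftl1 stood at 2301 to 2584 CPM across WT and 2361, 3158 and 3896 CPM, and the heavy chain gene Fth1 at 1132 to 1435 CPM and 1495, 1095 and 737 CPM. Slc40a1, the iron exporter ferroportin, stood at 164 to 203 CPM and 117, 183 and 265 CPM, again lowest in DKO1 and highest in DKO3. Both vitamin D genes tested had that arrangement too. The receptor gene Vdr stood at 14.9 to 24.7 CPM across WT and 14.2, 36.4 and 60.6 CPM, and Cyp27a1, a sterol hydroxylase gene, at 1.04 to 1.45 CPM and 0.907, 2.08 and 3.30 CPM. No gene of these 4 lists had an adjusted p under 0.05 by edgeR.

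Transcription factors known from liver and endoderm as regulators of these genes numbered 19, all tested. Of these 17 had a positive fold change (median 0.29), beside 7270 of the 14002 genes tested, and none passed the threshold by edgeR. DKO1 was lowest and DKO3 highest in 8 of 19 (42.1%), beside 14.8% of all genes. Among them Hnf4a stood at 421 to 449 CPM across WT and 369, 486 and 492 CPM. Cebpa spanned a wider range, at 2.53 to 4.02 CPM across WT and 2.31, 7.72 and 32.1 CPM. Gata4 stood at 96.0 to 98.7 CPM and 107, 102 and 83.0 CPM. Zhx2, which represses Afp in the postnatal mouse liver, stood at 3.09 to 4.79 CPM across WT and 5.16, 3.90 and 2.06 CPM, and Zbtb20, another repressor of Afp there, at 0.341 to 0.599 CPM and 0.619, 0.666 and 0.617 CPM, above WT in all 3 (adjusted p 0.739 by edgeR). Zhx2 was highest in DKO1 and lowest in DKO3, an arrangement found in 4 of the 19 (21.1%), beside 19.0% of all genes tested. Zbtb20 was the 1 factor of the 19 whose groups did not overlap, beside 15.6% of all genes tested. The place of either factor in the carrier levels was not tested.

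The genes whose log2 CPM over the 6 libraries was most like that of a carrier were ranked by Pearson's r among 9977 genes (9978 for Alb and Hpx) with a mean of at least 5 CPM, as a description. For Afp they were Scpep1 (r = 0.9993), Spp2, which encodes a secreted phosphoprotein (0.9992), and Apoa2, an apolipoprotein gene (0.9989). Spp2 stood at 226, 163 and 190 CPM across WT and 59.9, 261 and 574 CPM in DKO1, DKO2 and DKO3. Apoa2, also 1 of the visceral endoderm markers, stood at 400, 299 and 338 CPM and 132, 452 and 1038 CPM. For Trf they were Tmem150a, Pcbd1 (0.9991), and Hsd17b2, a steroid dehydrogenase gene (0.9990). For Rbp4 they were Hkdc1, Ly6g2 and Cog6, and for Ttr Mien1, Npepl1 and Tmub1. For the scarce carriers they were Osbpl11, Gnptg and Zfand2b (Gc), Gmppa, Rnh1 and Aprt (Hpx) and, among others, Aldh1b1 and Spag9 (Alb). All 6 libraries enter each value.

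Markers of other tissues also differed between the libraries labelled DKO. Primitive erythroid markers, all 9 tested, summed to 8780 to 13659 CPM across WT and 8122, 10282 and 2707 CPM in DKO1, DKO2 and DKO3. Mesoderm and mesothelium markers, 10 of 10 tested, summed to 3006 to 5274 CPM and 2472, 7358 and 8270 CPM. Most of that sum was collagen counts. Of the 10, Col1a1 and Col3a1 had DKO1 lowest and DKO3 highest, as the carriers did, whereas Pdgfra, Hand1, Foxf1 and Vim had the opposite arrangement, as for Hand1 at 241, 114 and 58.1 CPM. Endothelial markers, 8 of 8 tested, summed to 442 to 539 CPM and 586, 554 and 344 CPM, and parietal endoderm markers, 6 of 6, to 1018 to 1148 CPM and 959, 1216 and 1468 CPM. Macrophage markers, 5 of 8 tested, summed to 79.5 to 103 CPM across WT and 84.1, 123 and 161 CPM, with no count of C1qa, C1qb or Aif1 in WT2 and none of C1qa in DKO1. In DKO3 C1qa held 85 counts, C1qb 366 and Aif1 52, and Csf1r stood at 65.3 CPM, against 2.30 to 4.92 CPM across WT. Of the 5 macrophage markers tested, 3 lay above the WT mean in DKO3 and 2 below it. Those 2 were Fcgr3 (9.01 CPM, against 10.4 to 16.5 CPM across WT) and Mrc1 (64.2 CPM, against 59.4 to 75.2 CPM). Trophoblast markers, 5 of 8 tested, summed to 130 to 164 CPM and 298, 125 and 354 CPM. Hand1, also on the mesoderm and mesothelium list, was the largest part of the trophoblast sum in every library but DKO3. There Prl2c2 stood at 229 CPM, against 0.894 to 8.67 CPM across WT. Of the 5 trophoblast markers tested, 3 lay above the WT mean in DKO3 and 2 below it.

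Of 9 hepatocyte markers listed 4 were tested, and the sum of the list was 30.5 to 33.4 CPM across WT and 43.9, 25.3 and 15 CPM in DKO1, DKO2 and DKO3. Most of it was Tdo2, at 26.9 to 30.0 CPM across WT and 41.5, 21.4 and 10.3 CPM. Hal had the arrangement of the carriers, at 1.51 to 2.2 CPM across WT and 0.495, 2.38 and 3.68 CPM. Cyp7a1 was at 0 in all 6 libraries and Tat in all but DKO3, where it held 0.0176 CPM. The part of erythroid, mesodermal, macrophage, trophoblast or hepatocyte content, and of library depth, in the carrier levels was not tested. The ratio of the embryonic globin counts Hbb-bh1 to Hbb-y was 1.34, 1.97 and 1.83 across WT and 5.4, 1.1 and 0.521 in DKO1, DKO2 and DKO3. Its place in the carrier differences was not tested either.

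**Figure D4:**
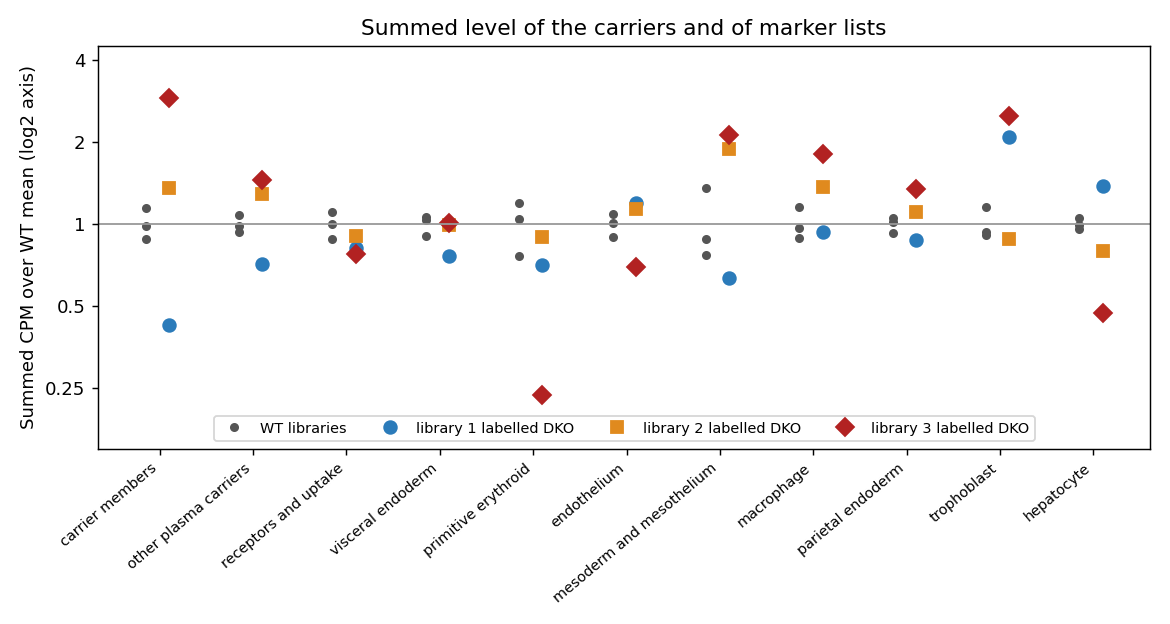
Summed CPM of the 7 carriers and of 10 lists in each library, divided by the mean of the 3 WT libraries, on a log2 axis. The carriers stand at 0.427, 1.35 and 2.91 times the WT mean in DKO1, DKO2 and DKO3, whereas visceral endoderm markers stand at 0.763, 0.992 and 1.01 and primitive erythroid markers at 0.708, 0.896 and 0.236. Apob and Cubn are the largest parts of the visceral endoderm sum across WT, and 7 of its 24 markers have DKO1 lowest and DKO3 highest.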

How the data were processed

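For 6 libraries the authors deposited unnormalized read counts by gene symbol, and these entered every step. The build mm10 and the tools SAMtools and DESeq2 are named, per the submitters' processing notes. Per the file headers the columns name subset BAM files, and what was subset is not given in the sources used here, nor are aligner, counting program, annotation and strand setting. Without strand, reads of Afp and its antisense gene Gm43449 cannot be told apart. Trf overlaps Gm20425 on the same strand, and how shared reads were counted is not given.

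CPM divide counts by the library total. Groups were compared with edgeR 4.0.16 in R 4.3.3 (TMM, filterByExpr, robust quasi-likelihood fit, group as the only term), with Benjamini-Hochberg adjustment over 14002 genes. The fit was checked on simulated data with the same spread in both groups. That check does not cover the wider spread among the libraries labelled DKO. Each SE is the size of the log2 fold change divided by the root of its F statistic. Departures from WT used a prior count of 2. Columns without a sample numbered 0. No 2 libraries agreed within sampling noise (lowest chi-square per degree of freedom 11.9). Alternatives used DESeq2 1.42.0 and limma 3.58.1.

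The carriers, lists and tests were chosen with earlier results of these data known. Of each list the 3 tested genes with the highest mean CPM are named, and for each carrier the 3 most similar genes, without predicted or sex-linked genes; some that this rule takes are not reported here. Named beside that rule, after their values were seen, are Afm, Stra6l, Tfrc, Dio3, Cebpa, Zhx2, Zbtb20 and Cp. The same holds for C1qa, C1qb, Aif1, Cyp7a1, Tat, Pdgfra, Foxf1 and Vim. The rule does take Csf1r, Tdo2, Hal, Col1a1, Col3a1 and, as a trophoblast marker, Hand1. These too were named after their values were seen. Sequences are from RefSeq.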

Additional observations from a re-analysis of the deposited data

How the results depend on the processing

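Over the 6 tested carriers and up to 18 alternatives each, 96 of 107 fold changes kept their direction and side of the threshold. Ranges with 1 library left out were -0.25 to 1.38 for Afp, -0.10 to 0.25 for Ttr, 0.12 to 1.22 for Trf, -0.13 to 0.32 for Rbp4, -0.14 to 0.62 for Gc and 0.83 to 2.58 for Hpx. Scaling to visceral endoderm markers turned Ttr to -0.0021 and Rbp4 to -0.00053, and limma-voom turned Rbp4 to -0.01. Limma-voom gave 0.20 for Afp. Limma-voom with library quality weights called 1 carrier, Hpx, at 1.66 (adjusted p 0.0497, against 0.0497 to 0.956 over its alternatives). That fit called 2661 genes of the whole table (19%) and 14 genes of the pathway lists, that is, of the lists other than cell type markers. Those lists held 5, 12, 11, 6, 13, 2 and 19 genes tested in the main fit. Their calls were not tested against the share over all genes. DESeq2 called 288 genes (2.06%), of which 3 were in the pathway lists (Afm, Dio3 and Stra6l). Afm passed the filter used for edgeR and DESeq2 only through the libraries labelled DKO. It also called the parietal endoderm marker Lama1 (adjusted p 0.0069). Against 5 genes called by edgeR, scaling to visceral endoderm markers gave 3, no filter 8, the replicate block 1, and leaving out 1 library 0 to 634. At an unadjusted p under 0.05 edgeR counted 1273 genes. With 1 library left out, 0 to 4 genes of the pathway lists were called by edgeR, the 4 being without DKO1 (Afm, Amn, Cebpb and Rora), where the cell type markers Apoa1, Apom, Col1a2, Col3a1 and Ptprc were called too, beside the 4.42% of all genes called. The cause of these changes was not tested. The share of counts in the carriers, with 1 library left out, had means of 1.26% to 1.44% in WT and 1.2% to 2.88% in the libraries labelled DKO.

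Deviations from the group mean correlated at -0.37, -0.283 and -0.189 between same-numbered libraries for numbers 1, 2 and 3. Such deviations sum to 0 within a group of 3, so these values cannot exclude a shared litter or batch. By the labels the samples share only a number. With the replicate block Afp stood at 0.30, Trf at 0.54, Hpx at 1.53, Gc at 0.19, Ttr at 0.01 and Rbp4 at 0.0015, none past the threshold. Hpx did not pass a filter of 1 CPM in 3 libraries, and Alb passed too few filters to be compared. Depth limits Alb and Hpx, where 3 counts correspond to 0.0529 to 0.15 CPM.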
